A study of Mus musculus with 8 samples.

Results

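The 10 genes Thrsp, Fasn, Acaca, Acly, Scd1, Me1, Elovl6, Srebf1, Dgat2 and Mlxipl, which serve the synthesis of fatty acids and triglycerides, were followed in calf muscle of mice with and without Bcat2. They were taken by symbol from a table of 38741 distinct symbols, using the row with the highest mean where a symbol recurred, and each of the 10 had 1 row. Thrsp was chosen by its FPKM in these same KO and WT mice, so its difference is given as a description with no test. The other 9 were added for their role in the same pathway with earlier results known.

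The animals were 4 male mice homozygous for the Bcat2tm1.2Clyn allele (KO, 10 to 11 weeks old, 15 to 24 g) and 4 male wild-type mice (WT, 9 to 10 weeks old, 22 to 25 g), all on a C57BL6 background. Bcat2 encodes BCATm, the mitochondrial enzyme that transfers the amino group of leucine, isoleucine and valine. Dams and weaned mice of both genotypes chose freely between a standard chow and a purified diet without those 3 amino acids. Messenger RNA of the gastrocnemius was read from 1 library per mouse and is given as FPKM, fragments scaled to exon length and to the mapped fragments of the library, so levels can be compared between genes. The knockout columns are named KO5 to KO8 and match no single labelled knockout, so weight and age were not tied to them.

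Lipogenesis turns surplus carbon into fat. Citrate leaves the mitochondrion and is split to acetyl-CoA, which is carboxylated, built into palmitate, elongated, desaturated and finally joined to glycerol. The transcription factors SREBP1 and ChREBP drive these genes in liver and adipose tissue after feeding, and the Thrsp protein, named for its response to thyroid hormone, accompanies them there. Skeletal muscle has a low capacity for making fatty acids, whereas the adipocytes between muscle fibres have a high one.

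Library facts that bear on these genes were as follows. FPKM summed to between 691168 and 896190 per library, and depth relative to WT2 ran from 0.437 to 1.23. Bcat2 stood at 2.89, 5.26, 2.91 and 2.09 FPKM in KO5 to KO8, against 83.0, 42.7, 46.0 and 41.2 FPKM in WT1 to WT4. Of 6 muscle markers, 5 were in the table, summing to 49700 to 81300 FPKM in KO mice and 49700 to 58700 FPKM in WT mice. Among the mice other than KO6 and WT1, 2 of the 5 (Myh4 and Myh1) were lower in KO mice without overlap and 3 overlapped. Such a separation was found for 13.2% of all tested genes. Myh1 was listed at 0 in KO7. KO6 and WT1 stood apart in fat transcripts. The 10 adipocyte markers summed to 8280 FPKM in KO6 and 15700 FPKM in WT1, against 1330 to 2030 FPKM in the other 3 KO mice and 620 to 742 FPKM in the other 3 WT mice, with none at 0 in every mouse. KO6 also carried skin transcripts, with 7 keratinocyte markers summing to 1320 FPKM and 6 sebaceous gland markers to 60.3 FPKM, against at most 8.85 and 2.90 FPKM in any other mouse. The members, and the counts and medians of other lists, are therefore given with and without KO6 and WT1.

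The RefSeq start regions of Thrsp and Fasn, whose highest KO value was that of KO6, and of Mlxipl, whose highest KO value was not, are shown for comparison. Each line holds the 250 bases before the annotated start, on the gene's own strand in the GRCm38.p6 build, at chr7:97417551-97417800 (minus strand) for Thrsp, chr11:120824548-120824797 (minus strand) for Fasn and chr5:135106641-135106890 (plus strand) for Mlxipl. Capitals mark CCAAT or its complement ATTGG, the letters bound by the factor NF-Y, in Thrsp and Fasn, and TCACNCCAC, a form of the sterol regulatory element read by SREBP, in Mlxipl.
Thrsp: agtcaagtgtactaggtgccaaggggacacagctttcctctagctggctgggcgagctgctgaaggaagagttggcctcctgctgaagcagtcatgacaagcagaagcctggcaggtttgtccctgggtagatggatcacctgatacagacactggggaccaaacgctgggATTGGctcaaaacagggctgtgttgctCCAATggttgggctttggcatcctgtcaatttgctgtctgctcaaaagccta
Fasn: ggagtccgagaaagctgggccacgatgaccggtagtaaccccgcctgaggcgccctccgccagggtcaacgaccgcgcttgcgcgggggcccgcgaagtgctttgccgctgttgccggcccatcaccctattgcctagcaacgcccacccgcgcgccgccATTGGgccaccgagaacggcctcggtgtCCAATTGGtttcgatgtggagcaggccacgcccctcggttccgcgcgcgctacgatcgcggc
Mlxipl: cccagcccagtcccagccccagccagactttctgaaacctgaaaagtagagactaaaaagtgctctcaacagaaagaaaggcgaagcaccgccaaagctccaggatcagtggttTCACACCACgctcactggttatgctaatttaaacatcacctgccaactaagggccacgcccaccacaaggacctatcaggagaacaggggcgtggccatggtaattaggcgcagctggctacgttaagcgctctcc
CCAAT stood 79 and 52 bases before the start in Thrsp and 90, 62 and 59 bases before it in Fasn, where the last 2 overlap as CCAATTGG. Searched on both strands, CCAAT was found in 3 of the 8 members with a listed region (Thrsp, Fasn and Srebf1) and in 33.8% of all 32851 listed regions. TCACNCCAC was found in 1 of 8 (Mlxipl, 136 bases before the start) and in 1.05% of all. AGGTCA, the core motif of many nuclear receptors, was found in 2 of 8 (Acly and Elovl6) and in 14% of all, whereas CACGTG and TATAAA were found in 0 of 8 and in 6.02% and 12.4% of all. The deposited gene ends lie 180 bases (Thrsp), 369 bases (Fasn) and 65766 bases (Acaca) from the RefSeq starts used, and at 0 bases for the other 5, so the windows, and above all that of Acaca, depend on the annotation.

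In the 6 mice other than KO6 and WT1, levels of the members spanned a wide range. By median over these 6 mice, Me1 led at 94.5 FPKM, followed by Scd1 at 34.4, Thrsp at 21.1, Mlxipl at 12.2, Srebf1 at 11.0, Dgat2 at 10.9, Acly at 6.19, Fasn at 3.19, Acaca at 1.96 and Elovl6 at 0.244 FPKM. The ranges of every pair of neighbours in this order overlapped, also at its low end, with 0.887 to 4.02 FPKM for Acaca and 0.149 to 1.06 FPKM for Elovl6. Thrsp was thus more abundant per length than Fasn in each of these 6 mice.

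Thrsp (ENSMUSG00000035686, mm10 chromosome 7, 97412938 to 97417730) read 59.9, 217, 53.2 and 23.4 FPKM in KO5 to KO8, against 18.9, 13.9 and 14.9 FPKM in WT2 to WT4. Its cell for WT1 is blank in the deposited table. Every KO mouse lay above every WT mouse that has a value, and KO6 was the highest. The fitted difference was 1.95 on the log2(FPKM + 1) scale (n = 4 KO and 3 WT). It sets KO6, with its raised fat transcripts, against a WT group from which the comparable mouse WT1 is missing. Without KO6 the difference was 1.37 (n = 3 each), with means of 45.5 ± 19.4 FPKM in KO mice and 15.9 ± 2.63 FPKM in WT mice (SD). These values chose the gene and are given with no test.

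Beside Thrsp, the fat hormone gene Adipoq read 49.9, 311, 23.3 and 27.6 FPKM in KO5 to KO8, against 674, 11.4, 15.4 and 4.49 FPKM in WT1 to WT4. It too was higher in each of KO5, KO7 and KO8 than in WT2, WT3 or WT4. Of the 10 adipocyte markers, 6 were separated in this way among the 6 mice. A further 1 (Aqp7) was lower in all 3 KO mice than in the WT mice, and 3 (Cidec, Lep and Adrb3) overlapped. Of all tested genes, 6.14% were separated with higher KO values and 13.2% with lower ones. Acvr1c, 1 of the 6, fell below the minimum mean of 1 FPKM and is not among the tested genes. Thrsp per unit of Adipoq was 1.20, 0.699, 2.28 and 0.849 in KO5 to KO8, against 1.65, 0.901 and 3.31 in WT2 to WT4, and the genotypes overlapped. They overlapped also per unit of Plin1, which coats the lipid droplet, and of Cidec, which enlarges it. With the mean level of the 10 adipocyte markers as a covariate, the fitted Thrsp difference was 0.66. What part the adipocyte transcripts have in the Thrsp difference was not tested, and in whole muscle a different number of adipocytes and a different RNA level per adipocyte cannot be told apart.

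**Figure D1:**
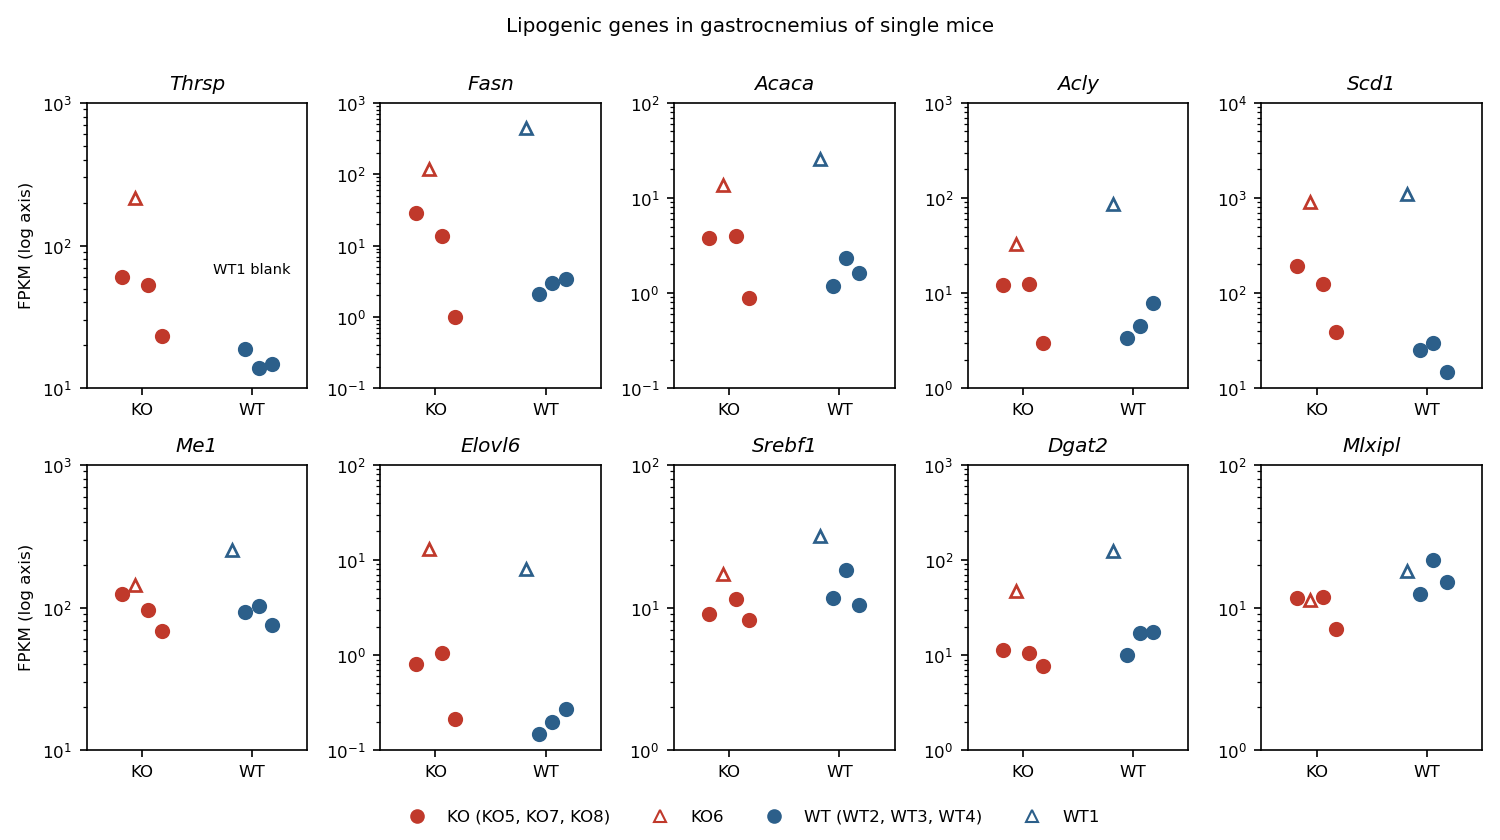
FPKM of the 10 lipogenic genes in each KO mouse (left, red) and WT mouse (right, blue) on log axes whose range differs between panels, with triangles for KO6 and WT1. Triangles lie above all circles in Fasn, Acaca, Acly, Scd1, Me1, Elovl6 and Dgat2, but not in Srebf1 or Mlxipl, and the Thrsp panel has no WT1 point.

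The enzymes of acetyl-CoA supply and fatty acid assembly were dominated by KO6 and WT1. Fasn, the synthase that builds palmitate (ENSMUSG00000025153, chromosome 11, 120805940 to 120824178), read 28.8, 120, 13.8 and 0.983 FPKM in KO5 to KO8, against 440, 2.08, 2.96 and 3.42 FPKM in WT1 to WT4. KO6 was 8.30 times the mean of the other KO mice, and WT1 was 156 times the mean of the other WT mice. KO8 held the lowest Fasn value of all 8 mice, while KO5 and KO7 lay above WT2, WT3 and WT4. The difference was 0.54 with all mice (95% interval -3.51 to 4.58, limma adjusted p = 0.904, exact permutation p = 0.8) and 1.34 without KO6 and WT1 (95% interval -1.10 to 3.77, limma adjusted p = 0.522, exact permutation p = 0.4).

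Acly, which splits citrate to acetyl-CoA, read 12.1, 33.0, 12.5 and 2.96 FPKM in KO5 to KO8, against 86.5, 3.39, 4.52 and 7.87 FPKM in WT1 to WT4. Acaca, the carboxylase that makes malonyl-CoA, read 3.77, 13.8, 4.02 and 0.887 FPKM in KO5 to KO8, against 25.7, 1.19, 2.32 and 1.61 FPKM in WT1 to WT4. In both genes KO5 and KO7 lay above WT2, WT3 and WT4 and KO8 below them, which is the order seen in Fasn. Their differences were 0.09 and 0.10 with all mice (limma adjusted p = 0.974 and 0.966) and 0.57 and 0.42 without KO6 and WT1 (limma adjusted p = 0.586 and 0.596). Me1, the malic enzyme that supplies cytosolic NADPH, was the least variable of the enzymes, at 125, 143, 96.0 and 68.6 FPKM in KO5 to KO8, against 254, 93.0, 103 and 75.9 FPKM in WT1 to WT4. The highest of the 8 mice was 3.70 times the lowest for Me1, against 448 times for Fasn. Its difference was -0.16 with all mice (limma adjusted p = 0.86) and 0.06 without KO6 and WT1 (limma adjusted p = 0.911).

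Among the enzymes that modify palmitate, Scd1 set the genotypes apart once KO6 and WT1 were left out. Scd1, the desaturase that makes oleate (ENSMUSG00000037071, chromosome 19, 44394451 to 44407709), read 194, 907, 124 and 39.1 FPKM in KO5 to KO8, against 1110, 25.2, 29.8 and 14.8 FPKM in WT1 to WT4. With all mice the groups overlapped and the difference was 1.49 (SE 1.42, 95% interval -1.73 to 4.72, limma adjusted p = 0.63, exact permutation p = 0.371). Without KO6 and WT1 every KO mouse lay above every WT mouse, at 119 ± 77.7 FPKM in KO mice and 23.3 ± 7.71 FPKM in WT mice (SD, n = 3 each). The difference was then 2.09 (95% interval 0.56 to 3.62), higher in 3 of 3 KO mice, and did not pass (limma adjusted p = 0.445, unadjusted 0.0159). An exact permutation test gave p = 0.1, and 3 mice a side can give no smaller value. Scd1 per unit of Adipoq overlapped between the genotypes, at 3.89, 2.92, 5.32 and 1.42 in KO5 to KO8, against 1.65, 2.21, 1.93 and 3.28 in WT1 to WT4. Not all members overlapped in this way. Without KO6 and WT1, Me1, Srebf1, Dgat2 and Mlxipl per unit of Adipoq, Plin1 or Cidec were lower in every KO mouse than in any WT mouse. The other members overlapped. Adipoq itself was higher in these KO mice, and such ratios were computed for the members only. With the adipocyte markers as a covariate the Scd1 difference was 1.08 over all mice.

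Elovl6, which lengthens palmitate to stearate, read 0.808, 13.0, 1.06 and 0.215 FPKM in KO5 to KO8, against 7.97, 0.149, 0.197 and 0.273 FPKM in WT1 to WT4. Elovl6 was higher in KO6 than in WT1, and Adipoq was lower. KO6 carried raised fat transcripts as well as skin and sebaceous ones. Their parts in its Elovl6 value were not tested and cannot be told apart in 1 mouse. Scd3, a desaturase of sebaceous glands, read 8.95 FPKM in KO6 and at most 0.139 FPKM in any other mouse. Elovl6 met the minimum mean of 1 FPKM only through KO6 and WT1, since its mean over the other 6 mice was 0.450 FPKM. Its difference was 0.50 with all mice (limma adjusted p = 0.806) and 0.46 without KO6 and WT1 (95% interval -0.04 to 0.96, limma adjusted p = 0.445).

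**Figure D2:**
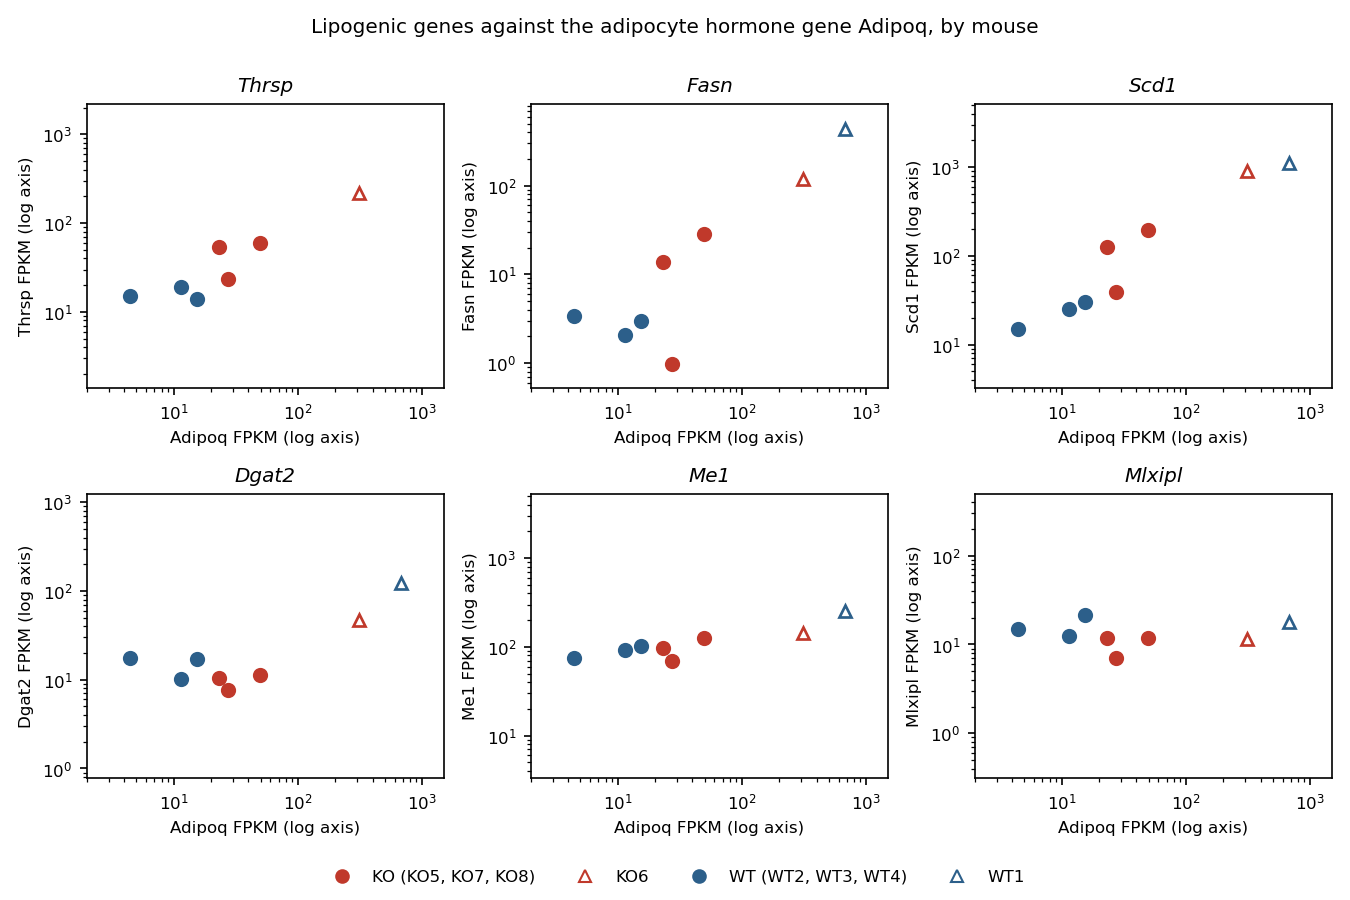
FPKM of 6 lipogenic genes against FPKM of Adipoq in the same mouse, both on log axes that span equal ranges in all panels, with KO mice in red, WT mice in blue and triangles for KO6 and WT1. Scd1 spans 14.8 to 1110 FPKM with its ends in the mice of lowest and highest Adipoq, Fasn is lowest in KO8 at an Adipoq of 27.6 FPKM, and Mlxipl stays between 7.08 and 21.7 FPKM.

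Dgat2, which adds the last acyl chain of a triglyceride, had a lower mean in KO mice with and without KO6 and WT1. It read 11.3, 47.4, 10.5 and 7.72 FPKM in KO5 to KO8, against 124, 10.1, 17.0 and 17.4 FPKM in WT1 to WT4. WT1 and KO6 were again the highest mice, but of the others KO5 and KO7 did not exceed WT3 or WT4. The difference was -0.74 with all mice (limma adjusted p = 0.673) and -0.53 without KO6 and WT1 (95% interval -1.16 to 0.11, limma adjusted p = 0.445).

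Both transcription factor genes had lower means in KO mice, and neither passed the threshold. Srebf1, which encodes SREBP1, read 9.02, 17.3, 11.5 and 8.13 FPKM in KO5 to KO8, against 31.9, 11.7, 18.3 and 10.5 FPKM in WT1 to WT4, with a difference of -0.54 (95% interval -1.35 to 0.28, limma adjusted p = 0.542) and, without KO6 and WT1, of -0.43 (95% interval -1.04 to 0.17, limma adjusted p = 0.449). Mlxipl, which encodes the glucose-responsive factor ChREBP (ENSMUSG00000005373, chromosome 5, 135106891 to 135138382), read 11.7, 11.4, 11.9 and 7.08 FPKM in KO5 to KO8, against 18.1, 12.4, 21.7 and 15.1 FPKM in WT1 to WT4. Every KO mouse lay below every WT mouse, and neither KO6 nor WT1 was the highest of its genotype. WT3 held the highest Mlxipl value and KO8 the lowest. WT3 was also the highest mouse for 33.5% of all tested genes, and KO8 the lowest for 50.8%. The means were 10.5 ± 2.30 FPKM in KO mice and 16.8 ± 3.99 FPKM in WT mice (SD, n = 4 each). The difference was -0.63 (SE 0.22, 95% interval -1.12 to -0.14), lower in 4 of 4 KO mice, with an exact permutation p of 0.0286, below which 4 mice a side cannot go. Adjusted over all genes it did not pass (limma adjusted p = 0.48), and it was -0.63 also without KO6 and WT1 (limma adjusted p = 0.445). Of the exonic bases of Mlxipl, 235 are shared with a gene on the other strand, as are 109 of Srebf1, 30 of Me1 and 34 of Elovl6, and the sources do not state a strand setting, so reads there cannot be assigned.

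**Figure D3:**
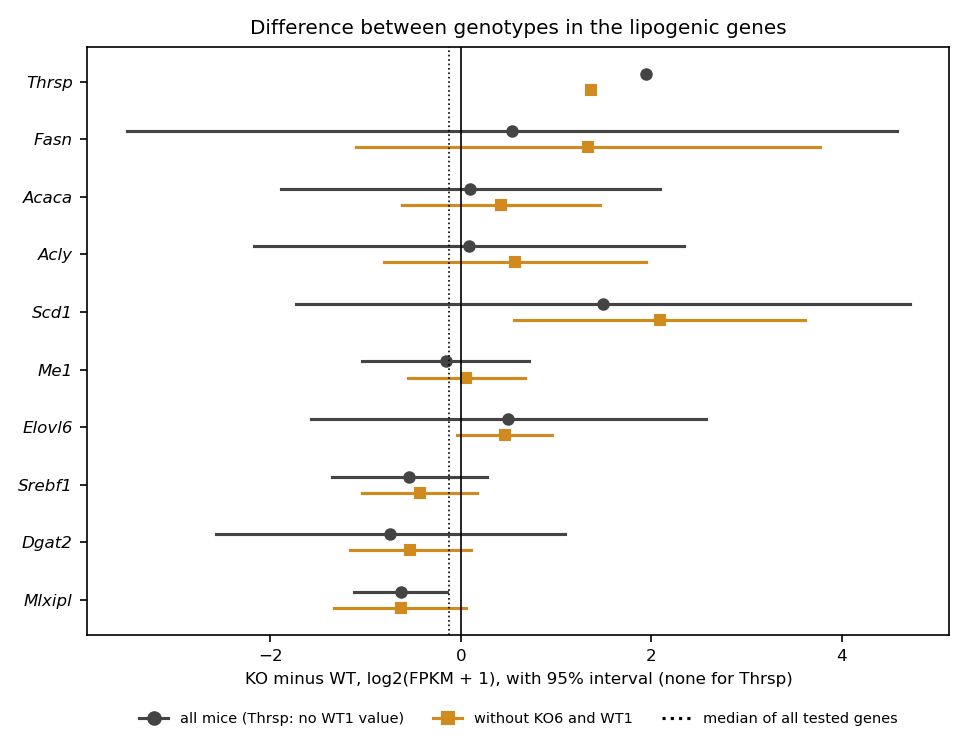
Fitted difference, KO minus WT, of each lipogenic gene on the log2(FPKM + 1) scale with its 95% interval (none for Thrsp), for all mice (grey circles) and without KO6 and WT1 (orange squares), with a dotted line at the median of all tested genes. Scd1 moves to 2.09 and Fasn to 1.34 without the pair of mice, while Mlxipl is at -0.63 in both.

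Over the list, 0 of the 9 members other than Thrsp passed at a limma adjusted p of 0.05 with all mice (lowest 0.48), and 1 of them, Mlxipl, had an unadjusted p under 0.05. Among the 11118 tested genes 0.0270% passed, 3 genes in all, and 2.99% and 7.33% had an unadjusted p under 0.05 with a higher and a lower KO value. The balance of these counts depended on scaling, with 332 genes higher and 815 lower as deposited, 750 higher and 574 lower after median-ratio scaling, and 612 higher and 651 lower after quantile scaling. All 10 members met the minimum mean of 1 FPKM. Of the 9, groups did not overlap for Mlxipl (lower in KO mice), against 2.08% of all tested genes higher and 4.68% lower. Without KO6 and WT1 they did not overlap for Scd1 (higher) and Mlxipl (lower), against 6.14% of all tested genes higher and 13.2% lower. In that comparison 0 of the 9 members passed, 1 (Scd1, higher) had an unadjusted p under 0.05 against 3.11% of genes higher and 6.77% lower, and 11 genes (0.0989%) passed by limma. The median difference of the 9 was 0.09 with all mice, beside -0.12 for all tested genes, and 0.42 without KO6 and WT1, beside -0.15 for all tested genes. Median-ratio scaling moved the median of all genes to -0.002. Relative to all genes, Mlxipl stood at -0.51 and Scd1 at 1.61 with all mice.

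The profile most like that of Thrsp was sought among the tested genes by the root mean square difference of centred log2(FPKM + 1) values. Over the 7 mice with a Thrsp value, Thrsp itself spread by 1.3 around its mean. The nearest named genes were Mrap, an accessory protein of melanocortin receptors, at 0.33, H2-Q10 at 0.33, Tkt, the transketolase of the pentose phosphate pathway, at 0.34, Acp5 at 0.35, Fabp4, the fatty acid carrier of adipocytes and endothelium, at 0.39, Ces1f at 0.42, Tmem45b at 0.43 and Clec4n at 0.44. Among the members Elovl6 was nearest at 0.50, ranking 17 of 11117 genes, and Mlxipl farthest at 1.49. Elovl6 and Thrsp were both highest in KO6 among these mice, and without KO6 and WT1 Elovl6 ranked 109, at 0.53. Thrsp itself spread by only 0.81 around its mean over those 6 mice. Tkt read 12.2, 52.1, 10.7 and 4.76 FPKM in KO5 to KO8, against 127, 4.12, 5.42 and 4.21 FPKM in WT1 to WT4. Over the 6 mice without KO6 and WT1 the nearest reported genes were Inmt, a methyltransferase of indole amines, at 0.23, Rpl31-ps14 and H2-Q10 at 0.27, Atp6v0a4 and Mrap at 0.35, and Fam178b and Tkt at 0.36. Mrap, H2-Q10 and Tkt were in both sets. These distances describe mice that also set the Thrsp difference, and no p is given.

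Other genes of lipid synthesis were read from 5 lists, and 0 members of any list passed by limma with all mice or without KO6 and WT1. In the triglyceride assembly list, Gpam, the acyltransferase of the first step, read 7.45, 11.6, 16.5 and 10.5 FPKM in KO5 to KO8, against 17.1, 16.8, 27.1 and 18.9 FPKM in WT1 to WT4. The Gpam groups did not overlap, a separation found for 4.68% of all tested genes with lower KO values. The difference of -0.77 did not pass (limma adjusted p = 0.48, unadjusted 0.0124), nor did that of -0.85 without KO6 and WT1 (limma adjusted p = 0.445). Of 10 tested genes of that list, 1 was lower at an unadjusted p under 0.05 and 0 higher with all mice (list median -0.32). Without KO6 and WT1, 1 was lower (Gpam) and 1 higher (Mogat1), with a list median of -0.28. Of all tested genes, 7.33% were lower and 2.99% higher at that p with all mice (median -0.12). Without KO6 and WT1 these shares were 6.77% and 3.11% (median -0.15). Agpat6 and Agpat1, 2 further acyltransferases, had KO means of 6.93 and 27.3 FPKM, against WT means of 9.30 and 32.8 FPKM. Agpat2, the acyltransferase mutated in a human lipodystrophy, was singled out once its values were known. It read 11.0, 44.9 and 15.6 FPKM in KO5 to KO7 and 208 FPKM in WT1, and was listed at 0 in KO8 and in WT2 to WT4.

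Among 22 tested regulators, 2 were lower at an unadjusted p under 0.05 and 0 higher with all mice. Without KO6 and WT1, 3 were lower (Rxra, Usf2 and Prkaa2) and 1 higher (Cebpa). The list median was -0.22 in both. Of all tested genes, 7.33% were lower and 2.99% higher at that p with all mice (median -0.12). Without KO6 and WT1 these shares were 6.77% and 3.11% (median -0.15). The 2 regulators lower with all mice were Rxra and Thra. Rxra, the retinoid X receptor that partners many nuclear receptors, averaged 17.9 FPKM in KO mice and 25.2 FPKM in WT mice. Thra, the thyroid hormone receptor of muscle, averaged 14.7 FPKM in KO mice and 19.8 FPKM in WT mice. Thra read 15.4, 16.3, 16.4 and 10.8 FPKM in KO5 to KO8, against 21.6, 17.0, 23.6 and 17.1 FPKM in WT1 to WT4. The Thra groups did not overlap, a separation found for 4.68% of all tested genes with lower KO values. Its difference was -0.41 (limma adjusted p = 0.484), and -0.42 without KO6 and WT1 (limma adjusted p = 0.445). After median-ratio or quantile scaling Thra still had an unadjusted p under 0.05 and Rxra did not. Prkaa2, the catalytic subunit of the energy sensor AMPK in muscle, averaged 18.6 FPKM in KO mice and 25.4 FPKM in WT mice. Mid1ip1, the paralogue of Thrsp, which was named for that relation, averaged 7.95 ± 3.61 FPKM in KO mice and 7.61 ± 2.59 FPKM in WT mice (SD, n = 4 each), with a difference of 0.00 on the log2 scale and of -0.02 without KO6 and WT1.

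The lists of precursor and NADPH supply (11 tested, median -0.10), other fatty acid synthesis, elongation and desaturation (14 tested, median -0.10) and cholesterol synthesis (19 tested, median 0.08) had 0 members with an unadjusted p under 0.05 with all mice. Without KO6 and WT1 their medians were 0.04, -0.14 and -0.13, and 1 gene, Ebp of cholesterol synthesis, was lower at that p. Of all tested genes, 6.77% were lower at that p in this comparison. The median of all tested genes was -0.12 with all mice and -0.15 without KO6 and WT1. After median-ratio scaling the list medians with all mice were 0.05, 0.04 and 0.13, so the sign of the first pair depended on scaling. Acss2, Acss1 and Me2 had the smallest p of the first list with all mice (limma unadjusted p = 0.435, 0.314 and 0.453). Their KO means were 11.0, 4.97 and 1.16 FPKM, against WT means of 18.3, 6.22 and 1.45 FPKM. In WT1 Acss2 read 43.8 FPKM, against 7.26 to 13.0 FPKM in WT2 to WT4. Without KO6 and WT1 the differences of Acss2, Acss1 and Me2 were -0.17, -0.36 and -0.31. The 11 genes of that list then ran from -0.36 to 0.79 (Tkt), with 7 above 0 and 4 below. Oxsm and Acacb, which serve mitochondrial fatty acid synthesis and the malonyl-CoA that restrains fat oxidation in muscle, averaged 2.76 and 20.8 FPKM in KO mice, against 3.87 and 26.6 FPKM in WT mice. Acsl1, which activates long-chain fatty acids, averaged 44.5 FPKM in KO mice and 60.2 FPKM in WT mice (39.2 and 51.5 FPKM without KO6 and WT1). Of the cholesterol genes, Ebp and Sc5d averaged 7.39 and 6.99 FPKM in KO mice, against 10.5 and 9.55 FPKM in WT mice. Without KO6 and WT1 these means were 5.84 and 4.99 FPKM in KO mice, against 8.77 and 7.71 FPKM in WT mice. Fdft1 is listed at 0 in WT1 and at 11.9 to 22.2 FPKM in the other 7 mice, so its difference of 1.00 rests on that listing.

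**Figure D4:**
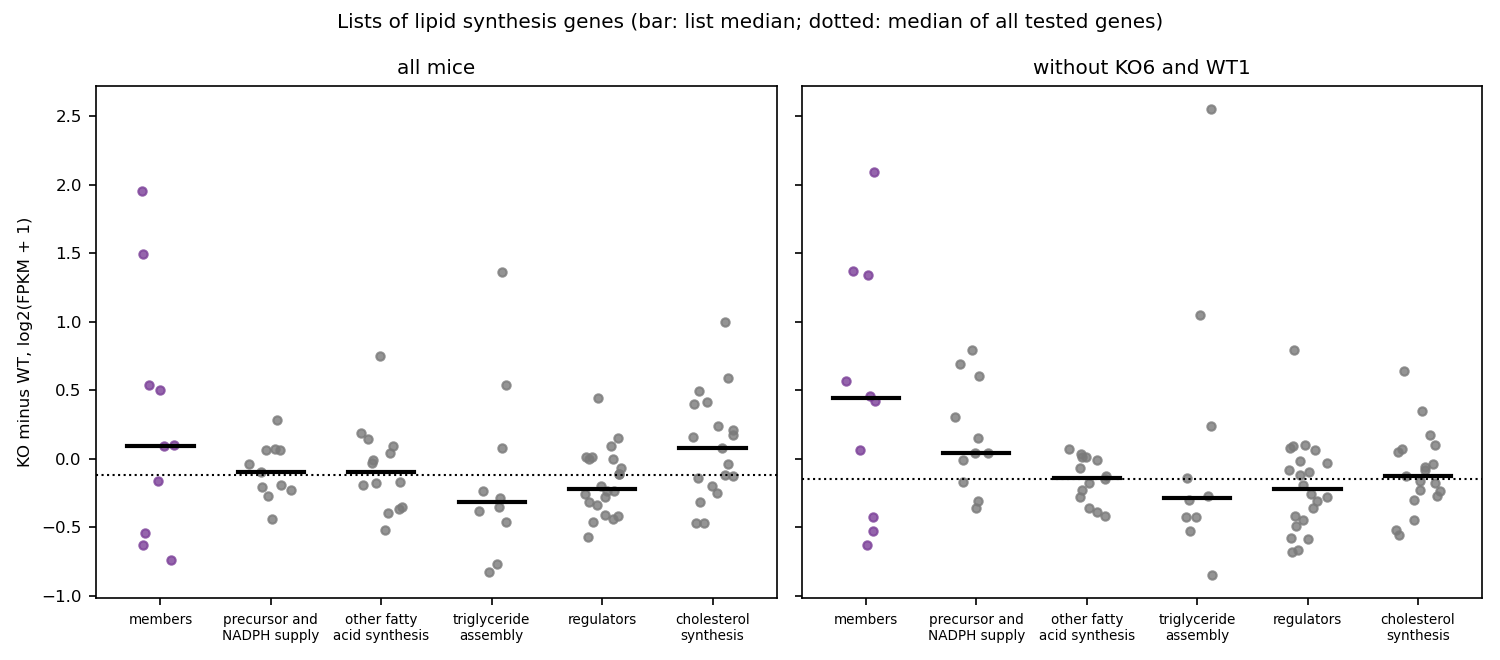
Fitted difference, KO minus WT, on the log2(FPKM + 1) scale for each tested gene of the members (purple) and 5 other lists (grey), with all mice on the left and without KO6 and WT1 on the right. Bars are list medians, that of the members including Thrsp, and the dotted line is the median of all tested genes. On the left the members spread from -0.74 to 1.95, the upper end being Thrsp, whose values chose the set. On the right they spread from -0.63 to 2.09. Triglyceride assembly spread from -0.85 to 2.55, the upper end being Agpat2, which is listed at 0 in KO8 and in WT2 to WT4.

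The authors' deposited table marks genes whose own p-value was under 0.05 or 0.001, by a test that the sources used here do not give. The first mark is carried in the authors' deposited table by 7 of the 10 members (Thrsp, Fasn, Acly, Me1, Dgat2, Srebf1 and Mlxipl), against 6.37% of its 39009 rows, and 5 carry the second, against 3.11%. Both counts include Thrsp, whose values chose the set. All 10 members met the minimum mean of 1 FPKM, whereas the 39009 rows include genes below it, so no enrichment can be read from these shares. Fasn carries both in the authors' deposited table, beside authors' means of 41.0 FPKM in KO mice and 112 FPKM in WT mice with standard errors of 27.1 and 109 FPKM.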

How the data were processed

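Per the labels' protocols, TopHat 2.0.9 placed the reads of 50 cycles on mm10 and Cufflinks 2.0.2 turned uniquely mapped reads into FPKM. A different Cufflinks version, 2.2.1, stands in the submitters' processing notes. FPKM per mouse, with mean and standard error by genotype, were deposited by the authors, per the file headers, as were flags of 0 or 1 on their own p-values. FPKM hold no read totals, so no counting interval is given. Relative depth was the mode of low FPKM ratios (under 0.3) to WT2.

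The limma-trend test took log2(FPKM + 1) of the 11118 genes averaging at least 1 FPKM, 2-sided, adjusted by Benjamini-Hochberg over all of them, with genotype as the only term. Such differences understate changes of low genes. Exact 2-sided permutation tests over mice were run on the same scale for single members. A fit of a gene with a blank cell uses the other mice. The code was checked on simulated data. The members and lists were chosen with earlier results of these data known. Named genes were the members, Bcat2, the 8 genes nearest to Thrsp (1 is not reported here), the 3 of each list with the smallest p, and markers of fat and skin with Scd3. Mid1ip1, Agpat2, Mogat1, Usf2, Cebpa and the markers named for not moving with the rest were chosen after their values were seen. Positions are the deposited start plus 1. Alternatives were pseudocounts of 0.1 and 0.5, no filter, a mean of at least 5 FPKM, 2 scalings, summed rows, a covariate and mice left out. The software was limma 3.58.1 in R 4.3.3, and scipy 1.17.1, pandas 2.3.3 and matplotlib 3.10.9 in Python 3.11.15.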

Additional observations from a re-analysis of the deposited data

Results flagged for a closer look

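Within a genotype, a value was looked at again where its gap to the nearest mouse exceeded Dixon's 95% critical share of the range of the 4 mice. Of 19 groups of 4 mice, 10 held such a value. The rule flags about 1 in 20 of independent, normally distributed groups. These groups are genes read in the same mice, and KO6 and WT1 were already known to stand apart, so no excess can be read from the count. In KO6 the gap was 0.934 of the range for Elovl6 and 0.909 for Dgat2. In WT1 it was 0.997 for Fasn, 0.954 for Acaca, 0.946 for Acly, 0.986 for Scd1, 0.85 for Me1, 0.984 for Elovl6 and 0.936 for Dgat2. The Mlxipl value of 7.08 FPKM in KO8 lay 0.89 of the range below the nearest KO mouse. Adipoq stood at 311 FPKM in KO6 and 674 FPKM in WT1, and KO8 had the lowest median deviation of all genes, -0.35 on the log2 scale. Their part in these values was not tested.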

How the results depend on the processing

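No paired analysis was possible because the knockout columns carry the numbers 5 to 8 and match no labelled replicate. Over 17 alternatives and the 9 members other than Thrsp, 134 of 152 values kept their direction and their side of the threshold and 18 changed sign, and 0 of the 9 passed in any of them (lowest limma adjusted p 0.377). Leaving out 1 mouse at a time gave differences from -0.38 to 2.25 for Fasn, -0.41 to 0.93 for Acaca, -0.40 to 1.05 for Acly, -0.27 to 1.23 for Elovl6, -0.36 to 0.21 for Me1 and -1.28 to 0.02 for Dgat2. The extremes of the first 4 came without KO6 and without WT1, in that order. Scd1 (0.69 to 2.89), Srebf1 (-0.74 to -0.23) and Mlxipl (-0.76 to -0.47) kept their sign when 1 mouse was left out, and Thrsp ran from 1.37 to 2.42. With the adipocyte covariate Acaca was at -0.15, Acly at -0.18 and Thrsp at 0.66, and without KO6 and WT1 Me1 was at 0.06. All genes passing numbered 3, 4 to 9 with 1 mouse left out (9 without WT1, 8 without WT2 or KO7, 6 without KO6, 5 without KO8) and 11 without KO6 and WT1. The cause was not tested. Depth is known only relative to WT2, and Elovl6 and Acaca had the lowest levels.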

Other observations

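KO8 had the lowest value of all 8 mice in 7 of the 10 members, Fasn, Acaca, Acly, Me1, Srebf1, Dgat2 and Mlxipl. It was also the lowest mouse for 50.8% of all tested genes. Adipoq nevertheless read 27.6 FPKM in KO8, above WT2, WT3 and WT4, and Fasn per unit of Adipoq was 0.0357 in KO8, against 0.387 to 0.591 in KO5 to KO7 and 0.182 to 0.762 in WT mice.

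KO6 and WT1 differed in the balance of the members. KO6 had lower Fasn (120 FPKM, against 440 FPKM in WT1) and lower Dgat2 (47.4 FPKM, against 124 FPKM in WT1), but higher Elovl6 (13.0 FPKM, against 7.97 FPKM in WT1). Per unit of Adipoq, Scd1 was 2.92 in KO6 and 1.65 in WT1, and Elovl6 0.0417 in KO6 and 0.0118 in WT1. Mogat1, an acyltransferase singled out once its values were known, stood at 7.02, 4.20 and 7.52 FPKM in KO5, KO7 and KO8, against 2.58, 1.47 and 3.55 FPKM in WT2 to WT4 (difference 1.05, limma adjusted p = 0.445).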
